A study of Homo sapiens with 4 samples.

Results

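DCUN1D5 and the machinery that attaches NEDD8 to cullins were examined as 10 genes in RNA-seq libraries of the human gastric cancer line HGC-27. The 10 genes were the 5 DCUN1D paralogs (DCUN1D1 to DCUN1D5) and the 5 genes NEDD8, NAE1, UBA3, UBE2M and RBX1, out of 62443 genes with a value. DCUN1D5 was chosen by its measured difference in these libraries, where its log2 fold change ranked 4th from the lowest of 7588 genes tested, so its own difference is given as a description with no test. The other 9 genes were chosen by function, but with earlier results of these data known, so counts over them are descriptions. All 10 were found by symbol.

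The study compared 2 libraries of cells treated with 10 μg/ml GLUP with 2 control libraries. GLUP is a cyclic peptide that was designed to bind the transcription factor TEAD4 and bring it into condensates. Treatment lasted 12 h in the results text of the study and 48 h in its methods. The control is given as stocking buffer in the methods and as no treatment in the labels. Both groups carried the same line and medium, with no altered gene named in the labels, and the methods speak of biological replicates without saying whether cultures were grown or treated separately, so p-values measure the spread between these libraries only. Whether lower values in a group stem from fewer cells of a type or from less RNA per cell cannot be told apart in bulk RNA.

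Values were FPKM, that is, fragment counts divided by gene length and by library size, as deposited. They summed to between 909735 and 949919 per library. The depth of sequencing is unknown, since low values do not step in units of 1 read, and counting errors are therefore not given. The control libraries were less alike (r = 0.933 across 7588 genes on the log2(FPKM + 1) scale) than the GLUP libraries (r = 0.986), and control 2 lay farther from the GLUP libraries (lowest r = 0.873) than control 1 did (lowest r = 0.952). Of the markers of the line, the keratin KRT8 lay between 1.05 and 2.25 FPKM, whereas EPCAM and CDH1, which mark epithelial cells, did not exceed 0.124 FPKM. Of 5 markers of differentiated stomach cells (MUC5AC, TFF1, TFF2, GKN1 and MUC6), 4 were listed at 0 in all libraries. The mesenchymal gene VIM lay between 293 and 387 FPKM and the fibroblast-associated genes LUM and DCN between 59.0 and 76.7 and between 20.1 and 41.3 FPKM. The other markers of these lists were far lower. The mesenchymal gene ZEB1 had 7.05 and 19.2 FPKM in control and 2.88 and 2.92 FPKM in GLUP libraries. FN1 averaged 1.43 FPKM, and CDH2 did not exceed 0.0508 FPKM. The fibroblast markers COL1A1, COL1A2 and PDGFRB averaged 4.48, 0.386 and 0.168 FPKM. The 5 epithelial markers summed to 2.97 and 3.70 FPKM in control and to 5.87 and 5.18 FPKM in GLUP libraries, and the 4 mesenchymal markers to 344 and 410 and to 340 and 297 FPKM, and their part in the results was not tested. The summed fibroblast markers were 105 and 104 FPKM in control and 97.7 and 104 FPKM in GLUP libraries. The summed immune markers did not exceed 0.289 FPKM.

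NEDD8 is a small protein of the ubiquitin family that is attached to cullins, the scaffolds of cullin-RING ubiquitin ligases, and the attachment switches these ligases on. NEDD8 is activated by a heterodimeric E1 enzyme of NAE1 and UBA3, passed to the E2 enzymes UBE2M or UBE2F and transferred to a cullin with the help of the RING proteins RBX1 or RNF7. DCUN1D proteins are co-E3 factors that bind both the E2 and the cullin and speed up this transfer. The COP9 signalosome takes NEDD8 off again, and CAND1 exchanges the substrate receptors of cullins without NEDD8. Cullin-RING ligases turn over regulators of the cell cycle and of stress responses, and inhibitors of the NEDD8 E1 have been developed as cancer drugs.

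Since GLUP was designed against TEAD4, the 250 bases before the annotated start sites of the 10 genes were read from RefSeq (GRCh38.p14). All 10 genes matched, with 12 promoters in all. The letters CATTCC, the core of the TEAD motif, were searched on both strands, and 11.9% of the 35116 promoters in the table held them, or 14.3% of the 27305 gene symbols in any of their promoters. They were found for 2 of the 10 genes, NEDD8 and DCUN1D3, where they began 108 and 248 bases before the start. The promoters of DCUN1D5, DCUN1D4 and UBA3, the members with the lowest log2 fold changes, and of NEDD8, the most abundant member, are shown 5′ to 3′ on the strand of the gene, with CATTCC in capitals. Those of DCUN1D5, DCUN1D4 and UBA3 hold no match in this window.
DCUN1D5 promoter, chr11:103092161-103092410, minus strand: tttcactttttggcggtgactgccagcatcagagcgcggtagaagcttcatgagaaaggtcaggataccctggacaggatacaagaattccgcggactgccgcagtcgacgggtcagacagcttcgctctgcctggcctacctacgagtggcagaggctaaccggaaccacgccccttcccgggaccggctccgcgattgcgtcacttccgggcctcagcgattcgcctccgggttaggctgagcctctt
DCUN1D4 promoter, chr4:51842903-51843152, plus strand: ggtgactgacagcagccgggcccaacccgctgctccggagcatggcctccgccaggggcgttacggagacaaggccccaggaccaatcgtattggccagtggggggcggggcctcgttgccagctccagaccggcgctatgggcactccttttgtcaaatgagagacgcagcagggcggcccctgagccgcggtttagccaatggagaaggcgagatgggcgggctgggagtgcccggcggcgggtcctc
UBA3 promoter, chr3:69080366-69080615, minus strand: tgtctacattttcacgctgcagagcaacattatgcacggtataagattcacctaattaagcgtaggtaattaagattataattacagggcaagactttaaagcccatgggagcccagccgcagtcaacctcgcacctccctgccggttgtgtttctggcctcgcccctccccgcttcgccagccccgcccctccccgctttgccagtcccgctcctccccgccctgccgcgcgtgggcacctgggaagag
NEDD8 promoter, chr14:24232368-24232617, minus strand: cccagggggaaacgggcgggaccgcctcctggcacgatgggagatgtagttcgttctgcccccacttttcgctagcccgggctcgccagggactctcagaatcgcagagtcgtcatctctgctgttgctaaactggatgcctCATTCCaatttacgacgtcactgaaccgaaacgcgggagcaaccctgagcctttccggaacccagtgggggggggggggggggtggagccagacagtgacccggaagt
The GC content of these windows was 60.4% for DCUN1D5, 68.4% for DCUN1D4, 58.0% for UBA3 and 62.0% for NEDD8. The median over all promoters of the table was 58.0%. A second start site of DCUN1D4 had 76.4% GC and no match either.

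DCUN1D5 was the most abundant paralog of its family in control cells and was 13.3-fold lower in GLUP cells. The gene (ENSG00000137692) lies at chr11:102921415-102962923 on the minus strand (GRCh37), and its reference transcript has 8 exons and a coding length of 711 bases. Its level was 28.9 FPKM in control 1 and 16.0 FPKM in control 2, and 1.91 and 1.45 FPKM in the libraries treated with GLUP. Both GLUP libraries lay far below both control libraries, and control 1 was the highest of all. The means were 22.4 ± 9.11 FPKM (SD, n = 2) in control and 1.68 ± 0.327 FPKM (SD, n = 2) in GLUP cells. The log2 fold change on the log2(FPKM + 1) scale was −3.07 (SE 0.38), against a median of −0.36 over all genes tested. It was −2.67 without control 1 and −3.48 without control 2. Among genes whose GLUP libraries both lay below both controls, DCUN1D5 was the 4th from the lowest, with CD47 (−2.96) just inside the 5 lowest and STRN3 (−2.94) just outside.

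DCUN1D4 was the second most abundant paralog and was also lower in GLUP cells. The gene (chr4:52709166-52783003, plus strand, GRCh37) had 4.87 and 6.89 FPKM in control and 1.54 and 1.39 FPKM in GLUP libraries. The groups did not overlap, and the means of 5.88 ± 1.42 and 1.47 ± 0.106 FPKM (SD, n = 2 each) differed 4.01-fold. The log2 fold change was −1.46 (SE 0.29), which did not pass the test across all genes (limma, Benjamini-Hochberg adjusted p = 0.10). DCUN1D4 and DCUN1D5 shared 70.2% of 695 aligned coding bases, more than DCUN1D5 shared with any other paralog (58.8% to 63.3%), and DCUN1D1 and DCUN1D2 shared 73.0%. No pair of paralogs had a run of 30 identical bases in common over the whole transcript.

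The other 3 paralogs had means under 1 FPKM over the 4 libraries and were not among the 7588 genes tested. DCUN1D1, known as SCCRO and amplified in squamous cell cancers, had 1.30 and 1.39 FPKM in control and 0.485 and 0.621 FPKM in GLUP libraries. The GLUP libraries of DCUN1D1 both lay below both controls, by 2.43-fold between the means, and in a fit to all genes with a value above 0 its log2 fold change was −0.60 (SE 0.17, limma adjusted p = 0.338). DCUN1D2 had 0.844 and 0.629 FPKM in control and 0.720 and 0.605 FPKM in GLUP libraries. DCUN1D3, the paralog that is anchored to membranes, had 0.124 and 0.286 FPKM in control and 0.328 and 0.180 FPKM in GLUP libraries. The groups of DCUN1D2 and DCUN1D3 overlapped (log2 fold changes of −0.06 and 0.06 in the same fit, with SE 0.18 and 0.14). Reads of DCUN1D3 may be shared with ERI2, which overlaps it on the same strand, and with LYRM1 on the other, and those of DCUN1D2 with other genes that hold some of its 50-base stretches, so both levels are uncertain. In GRCh37, DCUN1D1 lies at chr3:182655862-182703741, DCUN1D2 at chr13:114110134-114145266 and DCUN1D3 at chr16:20866247-20911680, each on the minus strand.

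The make-up of the DCUN1D family follows in part from the difference by which DCUN1D5 was chosen and is given as a description. DCUN1D5 made up 80.2% and 63.5% of the summed FPKM of the 5 paralogs in the control libraries and 38.4% and 34.2% in the GLUP libraries. Its share was 71.8% ± 11.8 in control and 36.3% ± 2.98 in GLUP cells (SD, n = 2 each), with no overlap. The share of DCUN1D4 was 13.5% and 27.4% in control and 30.9% and 32.8% in GLUP libraries, although its own level was lower there. DCUN1D2, whose level overlapped between groups, went from 2.35% and 2.50% to 14.4% and 14.2% of the sum. Among the 4 paralogs without DCUN1D5, DCUN1D4 made up 68.2% and 74.9% of the sum in control and 50.2% and 49.8% in GLUP libraries, DCUN1D2 11.8% and 6.84% against 23.4% and 21.6%, and DCUN1D1 18.2% and 15.1% against 15.8% and 22.2%. Shares taken within a library do not change with a single scaling factor per library.

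The summed FPKM of the family was 35.99 and 25.2 in control and 4.99 and 4.25 in GLUP libraries, 6.62-fold lower between the means. Without DCUN1D5 the sum was 7.14 and 9.19 in control and 3.07 and 2.80 in GLUP libraries, 2.78-fold lower. DCUN1D5 exceeded DCUN1D4 by 5.92-fold and 2.32-fold in the control libraries and by 1.24-fold and 1.04-fold in the GLUP libraries. The order of the paralogs by mean level was DCUN1D5, DCUN1D4, DCUN1D1, DCUN1D2 and DCUN1D3 in control cells. In GLUP cells DCUN1D5 and DCUN1D4 were neighbours within their spread (1.68 ± 0.327 and 1.47 ± 0.106 FPKM), and so were DCUN1D2 and DCUN1D1 (0.663 ± 0.0808 and 0.553 ± 0.0957 FPKM).

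**Figure D1:**
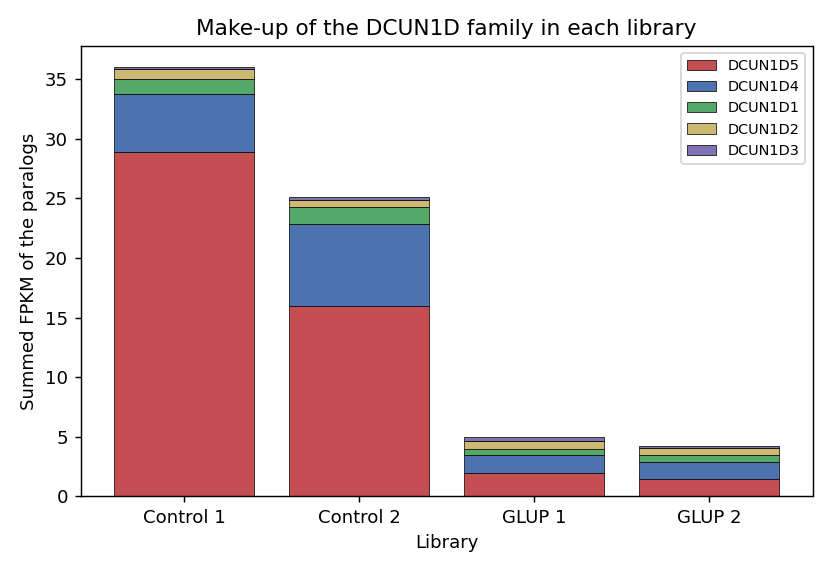
Summed FPKM of the 5 DCUN1D paralogs in each library, stacked by gene. The bars reach 35.99 and 25.2 FPKM in control and 4.99 and 4.25 FPKM in GLUP libraries, and most of the difference is the DCUN1D5 segment at the bottom.

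Of the 2 subunits of the NEDD8 E1 enzyme, UBA3 was 3.05-fold lower in GLUP cells and NAE1 1.76-fold lower. UBA3, the catalytic subunit (chr3:69103881-69129559, minus strand, GRCh37), had 13.1 and 11.4 FPKM in control and 4.18 and 3.85 FPKM in GLUP libraries. The groups did not overlap and the libraries of each group lay close together (12.2 ± 1.21 and 4.01 ± 0.240 FPKM, SD, n = 2 each). The log2 fold change was −1.40 (SE 0.29, limma adjusted p = 0.10). NAE1, the regulatory subunit (chr16:66836778-66907159, minus strand, GRCh37), had 26.0 and 34.2 FPKM in control and 18.2 and 15.9 FPKM in GLUP libraries. Its groups did not overlap either, with a log2 fold change of −0.78 (SE 0.33, limma adjusted p = 0.17). A long noncoding RNA that overlaps NAE1 on the same strand, ENSG00000258122, had 2.36 and 2.90 FPKM in control and 1.58 and 1.42 FPKM in GLUP libraries. The ratio of NAE1 to UBA3 was 1.99 and 3.002 in control and 4.36 and 4.13 in GLUP libraries.

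NEDD8 itself was among the most abundant transcripts of these cells, with 98.8% of the genes tested at or below its mean FPKM in control cells. The gene (chr14:24686063-24701573, minus strand, GRCh37) had 1601 and 1571 FPKM in control and 1112 and 1448 FPKM in GLUP libraries. Both GLUP values were below both controls, but they differed from each other more than GLUP 2 differed from control 2. The log2 fold change was −0.32 (SE 0.28, limma adjusted p = 0.438), close to the median of all genes, and it was 0.021 after centring each library on its median. The readthrough gene NEDD8-MDP1, which holds NEDD8 exons, had 11.6 and 11.5 FPKM in control and 2.07 and 20.0 FPKM in GLUP libraries, so reads could be split between both genes. NEDD8 exceeded DCUN1D5 by 55.5-fold and 98.4-fold in control and by 581-fold and 998-fold in GLUP libraries. Its ratio to UBA3 was 122 and 138 in control and 266 and 377 in GLUP libraries.

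RBX1, the RING protein that binds cullins and recruits the charged E2, was the second most abundant member. The gene (chr22:41347351-41369313, plus strand, GRCh37) had 700 and 943 FPKM in control and 437 and 589 FPKM in GLUP libraries. The groups did not overlap, but the gap between them was smaller than that between the controls. The log2 fold change was −0.68 (SE 0.33, limma adjusted p = 0.210). RNF7, its counterpart for CUL5, had 31.8 and 14.4 FPKM in control and 20.9 and 17.1 FPKM in GLUP libraries, which overlapped.

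UBE2M, the E2 enzyme that works with RBX1, averaged under 1 FPKM. The gene (chr19:59067079-59070321, minus strand, GRCh37) had 0.965 and 0.432 FPKM in control and 0.623 and 1.34 FPKM in GLUP libraries, so the groups overlapped (log2 fold change 0.22, SE 0.29, limma adjusted p = 0.702 in the fit to all genes with a value above 0). Its retrotransposed copy UBE2MP1 shares 6 of the 50-base stretches sampled, so the level of UBE2M is uncertain. UBE2F, the E2 enzyme that works with RNF7, had 8.51 and 10.4 FPKM in control and 3.80 and 6.56 FPKM in GLUP libraries, with a log2 fold change of −0.79 (SE 0.35, limma adjusted p = 0.181). UBE2F exceeded UBE2M in every library, by 8.81-fold and 24.03-fold in control and by 6.11-fold and 4.91-fold in GLUP libraries.

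In all, 6 of the 10 members passed the filter of a mean of at least 1 FPKM (DCUN1D4, DCUN1D5, NEDD8, NAE1, UBA3 and RBX1), and 4 did not. Counts past 2-fold, here and below, were taken on the log2(FPKM + 1) scale, whereas fold values of single genes are ratios of mean FPKM. A gene at a low level can therefore differ by more than 2-fold in mean FPKM without being counted. Of the 6 members that passed, 0 were higher by more than 2-fold, beside 6.83% of all 7588 genes tested. On the lower side there were 3 (DCUN1D5, DCUN1D4 and UBA3), beside 16.3%. Without DCUN1D5 the count was 2 of 5. In all 6 members tested both GLUP libraries lay below both controls, as they did in 49.7% of all genes, whereas both lay above in 17.5%. None of the 5 members other than DCUN1D5 had an adjusted p under 0.05 (limma), beside 0.0264% of all genes past that threshold and a 2-fold difference, and DCUN1D4 and UBA3 had an unadjusted p under 0.05, beside 25.4% of all genes on the lower side and 6.37% on the higher. Their median log2 fold change was −0.78, against −0.36 over all genes tested. With 2 libraries against 2, the smallest two-sided p of an exact permutation test is 0.333, so none was run.

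Outside the members, 46 genes of the pathway were looked up, of which 38 passed the filter. Of these, 7 were lower and 2 higher by more than 2-fold on the log2(FPKM + 1) scale, beside 16.3% and 6.83% of all genes. The lower share was 18.4%, and the median log2 fold change of −0.36 was that of all genes. Both GLUP values were under both control values in 19 of the 38, beside 49.7% of all genes, and above them in 6, beside 17.5%. The groups overlapped in 13. None of the 38 had an adjusted p under 0.05 (limma, lowest 0.10). An unadjusted p under 0.05 (limma) was seen for 9 on the lower and 1 on the higher side, beside 25.4% and 6.37%. Of the 38, 5 averaged 1 FPKM only in control cells (CUL2, CUL3, CUL4A, SENP8 and FBXW7) and 0 only in GLUP cells, so these counts lean to the lower side through the filter. Among them, 2 of the 7 that were lower by more than 2-fold were of this kind (CUL4A and SENP8).

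Of the 8 cullins, 6 were tested (CUL1, CUL2, CUL3, CUL4A, CUL5 and CUL9), with log2 fold changes between −1.24 and −0.26. Of these, CUL2, CUL3 and CUL4A averaged 1 FPKM only in control cells and so reached the filter through the group where they were higher, and no count over the cullins is read from them. CUL4A, a scaffold for DDB1-based ligases, had 3.38 and 2.93 FPKM in control and 0.388 and 1.21 FPKM in GLUP libraries (log2 fold change −1.24, SE 0.31). CUL3, the scaffold for KEAP1, had 2.91 and 1.98 FPKM in control and 0.998 and 0.698 FPKM in GLUP libraries (log2 fold change −0.89, SE 0.27). CUL1, the scaffold of SCF ligases, had 6.53 and 4.74 FPKM in control and 2.77 and 3.10 FPKM in GLUP libraries. The other 2 averaged under 1 FPKM and went opposite ways without overlap, CUL4B with 0.570 and 0.572 FPKM in control and 0.227 and 0.162 FPKM in GLUP libraries, and CUL7 with 0.137 and 0.0687 FPKM in control and 0.342 and 0.335 FPKM in GLUP libraries.

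The subunits of the COP9 signalosome went both ways. Of its 10 genes, all tested, 2 were lower and 1 higher by more than 2-fold, beside 16.3% and 6.83% of all genes. Their median log2 fold change was −0.31, near the −0.36 of all genes tested. COPS4 had 44.9 and 52.4 FPKM in control and 14.7 and 15.8 FPKM in GLUP libraries, 3.19-fold lower (log2 fold change −1.61, SE 0.32, limma adjusted p = 0.10). COPS2 had 2.07 and 6.86 FPKM in control and 1.38 and 1.33 FPKM in GLUP libraries, and its log2 fold change of −1.06 was −0.38 without control 2. GPS1, the first subunit of the complex, had 2.52 and 1.25 FPKM in control and 13.6 and 10.1 FPKM in GLUP libraries, 6.28-fold higher (log2 fold change 2.18, SE 0.35, limma adjusted p = 0.10). COPS5, the catalytic subunit that removes NEDD8, had 33.0 and 26.6 FPKM in control and 22.8 and 24.04 FPKM in GLUP libraries, a log2 fold change of −0.33 (SE 0.32).

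Of the 6 genes that process or remove NEDD8 or exchange cullin partners, 4 were tested (UCHL3, SENP8, GLMN and NUB1), with log2 fold changes between −1.53 and −0.67. In these 4 the GLUP libraries lay below both controls, as in 49.7% of all genes, and SENP8 reached the filter through its control values only. UCHL3, which cleaves the NEDD8 precursor, had 156 and 228 FPKM in control and 62.7 and 66.9 FPKM in GLUP libraries (log2 fold change −1.53). SENP8, which cleaves the precursor and takes NEDD8 off proteins other than cullins, had 2.43 and 1.61 FPKM in control and 0.325 and 0.413 FPKM in GLUP libraries (log2 fold change −1.13, and −0.93 without control 1). CAND1 averaged under 1 FPKM, with 0.834 and 1.25 FPKM in control and 0.664 and 0.470 FPKM in GLUP libraries, and so did CAND2, with 0.106 and 0.154 FPKM in control and 0.0793 and 0.311 FPKM in GLUP libraries, which overlapped. None of these genes passed the test across all genes.

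Of the 4 adaptors, 1 (ELOC) was lower and 0 higher by more than 2-fold, beside 16.3% and 6.83% of all genes. ELOC had 122 and 369 FPKM in control and 62.1 and 78.8 FPKM in GLUP libraries (log2 fold change −1.59, and −0.80 without control 2). The median of the 4 adaptors was −0.09. Of 16 substrate receptors, 12 were tested, with a median of −0.18. Of these 12, 1 (CRBN) was lower and 1 (KEAP1) higher by more than 2-fold, beside 16.3% and 6.83% of all genes. CRBN, the receptor that binds thalidomide, had 24.6 and 44.8 FPKM in control and 8.36 and 8.54 FPKM in GLUP libraries, 4.11-fold lower (log2 fold change −1.86, SE 0.39, limma adjusted p = 0.10). KEAP1, the receptor for NRF2, had 9.13 and 3.81 FPKM in control and 15.6 and 11.8 FPKM in GLUP libraries, 2.12-fold higher (log2 fold change 1.06, SE 0.44, limma adjusted p = 0.163), with a log2 fold change of 0.53 without control 2. Of 8 NRF2 target genes, 1 (SRXN1) was lower and 1 (NQO1) higher by more than 2-fold, beside 16.3% and 6.83% of all genes. NQO1 had 357 and 140.0 FPKM in control and 701 and 534 FPKM in GLUP libraries (log2 fold change 1.45, and 0.78 without control 2). SRXN1, on the lower side, was listed at 5.10 FPKM in control 1 and at 0 in the other libraries. The median of the NRF2 targets was −0.67, and none had an adjusted p under 0.05 (limma, lowest 0.101). On the lower side 2 had an unadjusted p under 0.05 (limma), beside 25.4% of all genes, and on the higher 1, beside 6.37%. The 2 lower ones and SRXN1 averaged 1 FPKM only in control cells, so the median and the lower count lean down through the filter. Of the 8 E1 enzymes of other ubiquitin-like proteins, 5 were tested, and their median was −0.23. None was lower or higher by more than 2-fold, beside 16.3% and 6.83% of all genes.

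**Figure D2:**
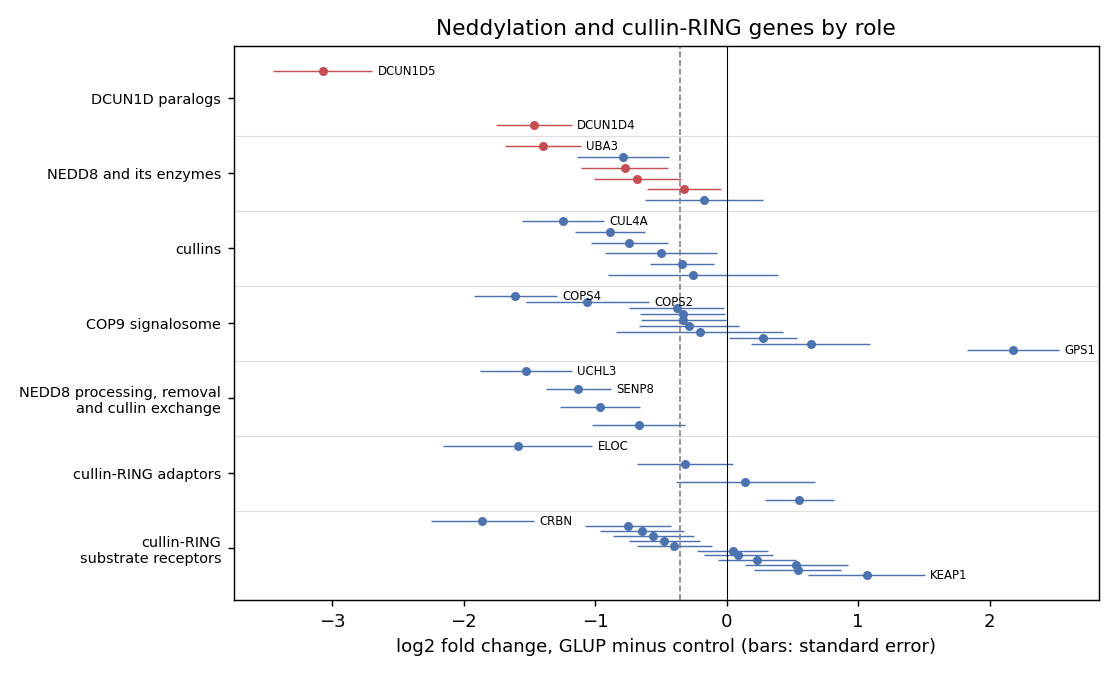
Log2 fold changes (GLUP minus control, on the log2(FPKM + 1) scale) of the 6 tested members in red and the 38 other tested genes in blue, by role, with bars for the standard error, a solid line at 0 and a dashed line at the median of all genes tested (−0.36). DCUN1D5 at −3.07 stands alone on the left, GPS1 at 2.18 on the right, and the other genes lie between −1.86 (CRBN) and 1.06 (KEAP1).

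The differences moved with the GC content of the transcripts. Over all genes tested, split into quintiles by the GC content of the longest annotated transcript, the median log2 fold change went from −0.78 in the quintile with the lowest GC content through −0.64, −0.41 and 0.02 to 0.44 in the quintile with the highest. Of the genes in the lowest quintile 32.2% were lower by more than 2-fold, against 4.03% in the highest. DCUN1D5 (35.6% GC), DCUN1D4 (36.1%) and UBA3 (39.0%) belonged to the lowest quintile, and NAE1, RBX1 and NEDD8 to the next. The reference transcripts of NEDD8 and RBX1 had 51.9% and 47.9% GC, against 42.4% and 42.9% for their longest transcripts. Their quintile and their values with the GC trend removed therefore depend on the transcript used. GPS1 (63.7%) and KEAP1 (60.8%), the 2 pathway genes outside the members that were higher by more than 2-fold, belonged to the highest quintile. DCUN1D5 was the lowest of the 1514 genes of its quintile, whereas 10.6% of that quintile lay at or below DCUN1D4 and 12.7% at or below UBA3. With the trend along GC content taken out of each library, the log2 fold changes were −2.23 for DCUN1D5, −0.63 for DCUN1D4, −0.65 for UBA3, −0.08 for NAE1, −0.07 for RBX1 and 0.30 for NEDD8. The count of members lower by more than 2-fold was then 1 of 6 in place of 3. That of other pathway genes was 2 of 38 (COPS4 and CRBN) in place of 7. Over all 7588 genes tested the count was 427 in place of 1235. The part of GC content in the measured levels was not tested further.

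The genes around DCUN1D5 were hardly detected. Of 28 genes within 500 kb, 22 were listed at 0 in all libraries and none averaged 1 FPKM. The nearest protein-coding gene, DYNC2H1, 17216 bp away, had 0.679 and 0.511 FPKM in control and 0.306 and 0.274 FPKM in GLUP libraries. A long noncoding RNA, ENSG00000260966, lies on the same strand inside the last part of DCUN1D5 and was listed at no more than 2e-06 FPKM in any library. It shares 203 of the 50-base stretches sampled with DCUN1D5, the most of any gene compared with a member, so the level of DCUN1D5 depends on how the counting divided reads between them and is uncertain in that respect.

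Genes were ranked by how near their profile over the 4 libraries came to that of DCUN1D5, as the Euclidean distance between centred log2(FPKM + 1) values. The 5 nearest of 7587 were EID1 (distance 0.518), CD47 (0.589), RANBP1 (0.592), ENSG00000284776 (0.648) and CLPTM1L (0.673), against a median distance of 2.84. EID1, an inhibitor of differentiation, had 31.7 and 29.1 FPKM in control and 3.68 and 2.63 FPKM in GLUP libraries. RANBP1, which assists the Ran cycle of nuclear transport, had 378 and 340.2 FPKM in control and 51.7 and 52.1 FPKM in GLUP libraries. Of the other members, UBA3 ranked 177th (1.74) and DCUN1D4 273rd (1.84). The 4 libraries give few points for such a ranking, and genes with a large difference between the groups come near each other by that alone.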

How the data were processed

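RNA-seq of HGC-27 cells was analysed, 2 control and 2 GLUP libraries, grouped by the sample titles. The authors deposited FPKM values per gene, made on the Majorbio platform. The submitters' processing notes name HISAT2, Cufflinks, RSEM and GRCh38.p10, with no versions or roles, whereas the row identifiers have the form of annotation lifted to GRCh37. If build and annotation differ, FPKM of genes with several transcripts can shift. Rows of one gene were summed (62492 rows to 62443 genes), and 99.55% of IDs matched a GENCODE name (GRCh37), from which positions and GC content were taken. Promoters come from RefSeq (GRCh38.p14).

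The 7588 genes whose 4 libraries averaged 1 FPKM or more were fitted on log2(FPKM + 1) with limma 3.58.1 (R 4.3.3, mean-variance trend, Benjamini-Hochberg adjustment over all of them). The script was tested on simulated data. Depth is unknown, so no counting error is given. The members, lists and markers were chosen with earlier results of these data known, and counts over them are descriptions. The text names all members, the pathway genes that differed by more than 2-fold, neighbours of DCUN1D5 averaging at least 1 FPKM (there were none) and the 5 nearest profiles. CUL1, CUL3, COPS5, CAND1, CAND2, CUL2, CUL4B, CUL5, CUL7, CUL9, GLMN, NUB1, FBXW7, UBE2F, RNF7 and DYNC2H1, the overlapping genes and STRN3 were named after their values were seen. The GC trend was removed by subtracting, in each library, a lowess curve (span 0.3) of the deviations from gene means against GC content. Stretches shared between transcripts were searched as 50-base windows. The alternatives were another pseudocount, other filters on low values, centring, quantile normalization, no mean-variance trend, the GC trend removed, the replicate number as a block and leaving out each library.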

Additional observations from a re-analysis of the deposited data

How the results depend on the processing

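All values rest on 2 libraries per group and FPKM of unknown depth. The count of genes differing by more than 2-fold was 1753, with 2840 at a pseudocount of 0.1, 864 with the GC trend removed (with or without the replicate block) and 1138 to 2757 on leaving out each library (1138 without control 2, 2757 without control 1). Centred on medians, 922 genes were higher and 526 lower, in place of 518 and 1235. Of the 6 members tested, 3 were lower by more than 2-fold, beside 1235 of 7588 genes, and 3 under each leave-one-out. With a mean of at least 5 FPKM, which DCUN1D4 did not reach, it was 2 of 5, beside 815 of 3390. With the GC trend removed (with or without the replicate block) it was 1 of 6, beside 427 of 7588. Of the 38 other pathway genes tested, 7 were lower by more than 2-fold, beside 1235 of 7588 genes, and 7 to 9 on leaving out each library. At a pseudocount of 0.1 the count was 10 of 38, beside 2043 of 7588. With a mean of at least 5 FPKM it was 4 of 18, beside 815 of 3390. Centred on medians it was 4 of 38, beside 526 of 7588. After quantile normalization it was 5 of 38, beside 591 of 7588. Once the GC trend was removed (with or without the replicate block) it was 2 of 38, beside 427 of 7588. NEDD8 reversed in sign, to 0.021 after centring and to 0.30 once the GC trend was removed (with the replicate block too). The value of 0.30 rests on the GC content of its longest transcript (42.4%, against 51.9% for its reference transcript). The cause was not tested.

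Equal replicate numbers did not establish pairs (r of the deviations 0.126, with 2 pairs only). The replicate block left the adjusted calls at 2 genes and 0 members, and at 16 genes and 0 members with the GC trend removed. With a single library left in a group its spread cannot be measured, so no adjusted calls are read from those fits. On leaving out each library, the log2 fold change of DCUN1D4 lay between −1.68 and −1.25 and that of UBA3 between −1.49 and −1.30. That of NAE1 lay between −0.96 and −0.59, that of RBX1 between −0.89 and −0.46 and that of NEDD8 between −0.51 and −0.13.

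DCUN1D5 ranged from −3.73 to −2.23 over the settings, DCUN1D4 from −2.003 to −0.63 and UBA3 from −1.61 to −0.65, including the plain ratio of mean FPKM, which was chosen after seeing the data.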
